A study of Mus musculus with 6 samples.

Results

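The olfactory receptor genes Olfr826 to Olfr986 form 112 of the 31319 genes of a count table from mouse main olfactory epithelium (MOE), the tissue of the nose in which odours are sensed. They were chosen by name alone: Olfr followed by a number in that range, with a pseudogene suffix (-ps) allowed. The table holds 1179 numbered olfactory receptor genes, so 1067 receptors lie outside the set. The poly(A) RNA came from male C57BL/6 mice, 5 months old. The first group, with 3 libraries, carried the genotype miR-200b/a KD, a knockdown of the microRNAs miR-200b and miR-200a. The second group, with 3 libraries, is called NC in the labels and serves as the control. Both groups share the strain background, sex, age and tissue. The labels do not describe how the knockdown was made, in which cells it acted or what the NC mice received. They mention triplicates but not separate mice, so a p-value here measures the spread of libraries that may be technical replicates. The comparison of KD with NC asks how the receptor transcripts differ when the 2 microRNAs are lowered.

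Odorant receptors are G protein-coupled receptors of the cilia of olfactory sensory neurons, where odour binding is passed through the G protein Golf and adenylyl cyclase to a cyclic nucleotide-gated channel. Each mature neuron expresses a single receptor gene from a single allele, so the level of a receptor in whole tissue follows how many neurons have chosen it and how much RNA each holds. In these bulk libraries fewer cells of a type and less RNA per cell cannot be told apart. All 112 genes belong to class II, the branch of the family whose genes are spread over many chromosomes, while class I genes lie together in 1 cluster. The miR-200 family is abundant in olfactory epithelium and is known to act in the maturation of olfactory neurons.

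Total counts per library lay between 15704791 and 17618540. Values by library are given below in the order of the replicate numbers, first for KD and then for NC. The gene Mir200a had 54, 3 and 52 counts in KD against 200, 87 and 84 in NC, and Mir200b 10, 0 and 28 against 76, 54 and 47. Neither passed the quasi-likelihood test of edgeR (Benjamini-Hochberg adjusted p = 0.309 and 0.288). Reads of the poly(A) precursor do not give the level of the mature microRNA. KD-2 stood apart from the other 5 libraries, with 149 counts of Omp, the marker protein of mature olfactory neurons, against 24302 in KD-1, 33430 in KD-3 and at least 61926 in each NC library. All 1179 receptor genes together had 29137, 1417 and 39515 counts in KD and 93889, 82197 and 50810 in NC. Markers of other cells went both ways. All 4 markers of olfactory ensheathing glia, 4 of 5 of globose basal cells and 6 of 7 of immature olfactory neurons were below 0. All 4 markers of plasma and B cells were above 0. All 4 tested respiratory epithelium markers were above 0 in fold change, with summed levels of 18042 to 42101 counts per 1000000 (CPM) in KD and 3252 to 11894 in NC, and 1 of them had an unadjusted p under 0.05. So did all 6 horizontal basal cell markers (689 to 1084 CPM in KD and 219 to 520 in NC) and all 3 macrophage markers (149 to 199 and 46.7 to 101 CPM), each above 0 with groups apart. Of 6 markers of sustentacular cells, the supporting cells of the epithelium, 4 were below 0 and 2 above. Cyp2g1, 1 of the 4, had 26440, 385 and 38357 counts in KD and 59865, 46286 and 44981 in NC. The 2 above 0 were Sox2 (log2 fold change 0.39, groups apart) and Cbr2 (0.42, groups overlapping). Cbr2 had 31832, 51617 and 53199 counts in KD and 22787, 46757 and 49012 in NC, so the markers of this list differed in KD-2. No marker passed after adjustment in edgeR (smallest adjusted p = 0.276). Their part in the results below was not tested.

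The sequences that bear on the comparison are those of the knocked-down microRNAs and of the receptors that resemble each other most. The mature microRNAs are shown first, from RefSeq (build GRCm38.p6), both on the minus strand of chromosome 4, at chr4:156054911-156054932 and chr4:156055685-156055706. Capitals mark the seed, the bases that pair with a target.
mmu-miR-200a-3p: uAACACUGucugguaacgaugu
mmu-miR-200b-3p: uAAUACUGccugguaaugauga
The seeds differ at 1 base, so the target sites searched for were CAGTGTT and CAGTATT. The most alike pair of receptors, Olfr870 and Olfr871, shared 97.5% of their aligned coding bases. The stretch of 150 coding bases with the most differences is shown for both, so the rest of the coding sequence separates them less. It lies (build GRCm38) at chr9:20170898-20171047 on the minus strand for Olfr870 and chr9:20212873-20213022 on the plus strand for Olfr871. Capitals mark the 9 bases that differ, which are all that separates reads from this stretch.
Olfr870: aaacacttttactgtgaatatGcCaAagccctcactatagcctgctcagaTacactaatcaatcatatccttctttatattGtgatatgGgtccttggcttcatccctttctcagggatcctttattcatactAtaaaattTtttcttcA
Olfr871: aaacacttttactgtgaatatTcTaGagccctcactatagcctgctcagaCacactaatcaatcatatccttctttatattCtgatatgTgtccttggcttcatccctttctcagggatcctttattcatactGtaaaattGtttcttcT
In the second pair, Olfr951 and Olfr954, with 96.1% identity, the stretch of the same length with the most differences differed at 18 bases. It lies on the plus strand at chr9:39394486-39394635 and chr9:39462126-39462275.
Olfr951: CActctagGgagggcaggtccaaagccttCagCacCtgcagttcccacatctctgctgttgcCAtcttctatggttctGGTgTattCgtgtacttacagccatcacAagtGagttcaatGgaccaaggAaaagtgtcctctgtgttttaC
Olfr954: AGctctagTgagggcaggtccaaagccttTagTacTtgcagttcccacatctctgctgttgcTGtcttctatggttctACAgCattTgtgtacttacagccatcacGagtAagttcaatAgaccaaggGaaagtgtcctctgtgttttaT

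The 112 genes lie in 3 places of the genome. Olfr826 and Olfr827 lie on chromosome 10 between 130178471 and 130214403, 34 genes lie in a proximal cluster on chromosome 9 between 18814728 and 20303599, and 76 lie in a distal cluster on chromosome 9 between 37745106 and 40190134. All 112 gene IDs were found in the GENCODE annotation of GRCm38, which lists 107 as protein coding and the other 5 as polymorphic or unprocessed pseudogenes. Coding sequences of 110 genes had a median of 936 bases. Genes of different clusters were less alike in sequence than genes of 1 cluster: the median identity of coding bases was 63.7% among proximal genes, 63.0% among distal genes and 52.7% between the 2 clusters. For 37 genes the nearest relative within the set shared at least 90% of the aligned bases, and counts of such genes are uncertain where reads could not be told apart. Whether the counting used strand is not stated, and 4 genes (Olfr860, Olfr910, Olfr916 and Olfr943) share exon bases with another annotated gene.

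In NC every one of the 112 genes had at least 1 count, and the levels spanned a wide range. The mean level over the 6 libraries, in CPM per kb of annotated exon, ran from 0.00486 to 3.25 with a median of 0.185. Olfr969 (chromosome 9, 39790945 to 39796635) had the highest level, with 28, 1 and 79 counts in KD and 123, 190 and 139 in NC. All 3 NC counts lay above all 3 KD counts. Its NC level was 5.24 ± 0.732 CPM per kb (SD, n = 3), and the NC values did not overlap those of the next gene, Olfr868, at 3.78 ± 0.928. Olfr868 (chromosome 9, 20098626 to 20104754, proximal) had the most counts of all 112 genes, with 107, 0 and 82 in KD and 304, 347 and 205 in NC. Its groups did not overlap either.

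The next 4 genes by level could not be ordered. Their NC levels were 2.00 ± 1.17 CPM per kb for Olfr972, 1.82 ± 0.245 for an Olfr912 gene (ENSMUSG00000060114, which the annotation calls Olfr910), 1.57 ± 0.499 for Olfr835 and 1.75 ± 0.909 for Olfr872, and neighbours in the order overlapped. Olfr972 had 38, 0 and 58 counts in KD and 70, 87 and 19 in NC. Olfr835 had 80, 0 and 83 against 77, 102 and 48, so that KD-1 and KD-3 lay within the range of NC. Olfr872 had 37, 0 and 43 counts against 83, 62 and 30, and this Olfr912 gene had 47, 0 and 66 against 64, 60 and 69. A second gene with the symbol Olfr912 (ENSMUSG00000111448) had 6, 0 and 1 counts against 20, 27 and 6. In each of these 5 genes KD-2 was the lowest library, at 0.

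**Figure D1:**
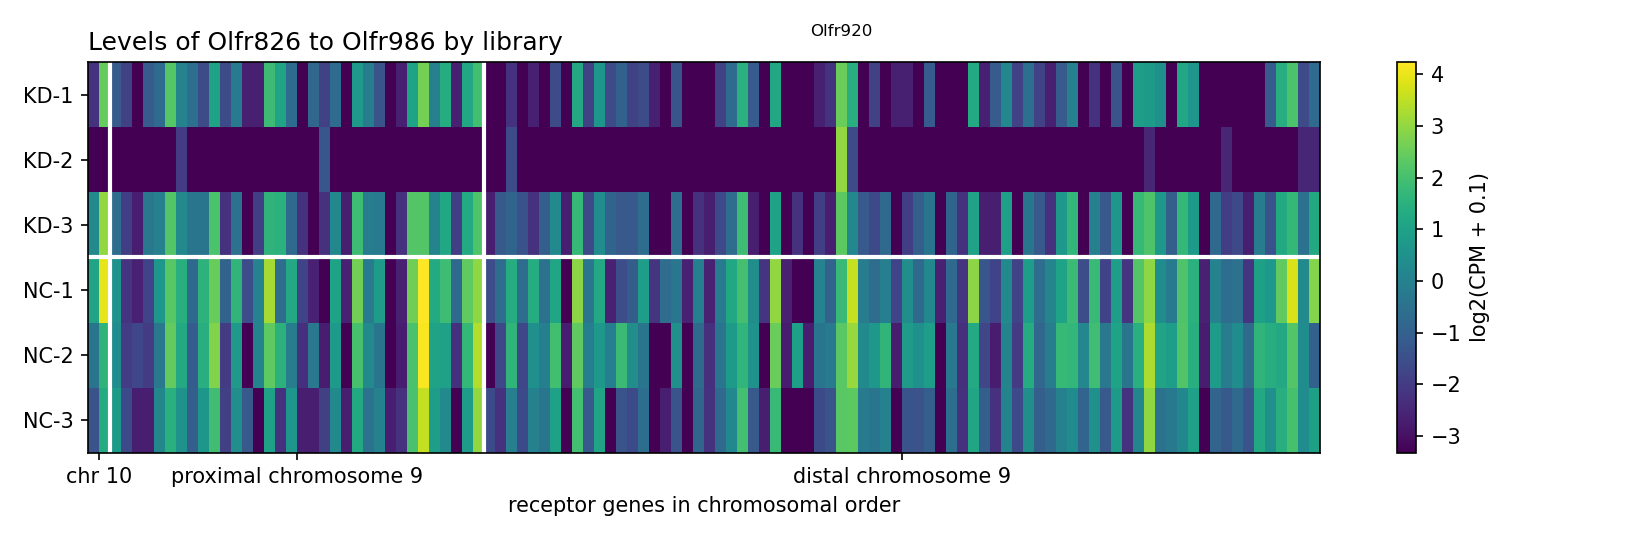
Levels of the 112 receptor genes (columns, in chromosomal order, with white lines between the chromosome 10 genes and the 2 chromosome 9 clusters) in the 6 libraries (lines of the map, KD above NC), as log2 of CPM plus 0.1; dark cells are at or near 0 counts. KD-2 is dark in 103 of 112 genes, and Olfr920, marked at the top, is the bright column that runs through all 6 libraries.

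Summed over the 112 genes, the KD libraries held 1495, 119 and 2138 counts and the NC libraries 4033, 4115 and 2325. Per 1000000 total counts this was 85.0, 7.58 and 123 in KD and 249, 234 and 136 in NC. All 3 KD values lay below all 3 NC values, by little between KD-3 and NC-3. Their exact 95% intervals, 118 to 129 and 131 to 142, did not overlap, though these cover counting error only. Genes with at least 1 count numbered 79, 9 and 97 in KD and 107, 103 and 100 in NC. At 10 counts or more there were 33, 1 and 51 genes in KD and 66, 80 and 55 in NC.

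As a share of all receptor counts the set was not lower in KD. In KD the share was 5.13% (exact 95% interval 4.88 to 5.39), 8.40% (7.01 to 9.97) and 5.41% (5.19 to 5.64). In NC it was 4.30% (4.17 to 4.43), 5.01% (4.86 to 5.16) and 4.58% (4.40 to 4.76). Every KD share lay above every NC share, with means of 6.31 ± 1.81% and 4.63 ± 0.358% (SD, n = 3 each). The order rests in KD-2 on Olfr920, which gave 103 of its 119 counts. Without that gene the shares were 4.79%, 1.13% and 5.18% in KD and 4.24%, 4.89% and 4.41% in NC, and the groups overlapped. Per 1000 Omp counts the whole set, with Olfr920, had 61.5, 799 and 64.0 counts in KD and 58.1, 61.9 and 37.5 in NC. Without Olfr920 these were 57.5, 107 and 61.3 in KD and 57.3, 60.5 and 36.2 in NC. The KD-2 values rest on its 149 Omp counts.

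**Figure D2:**
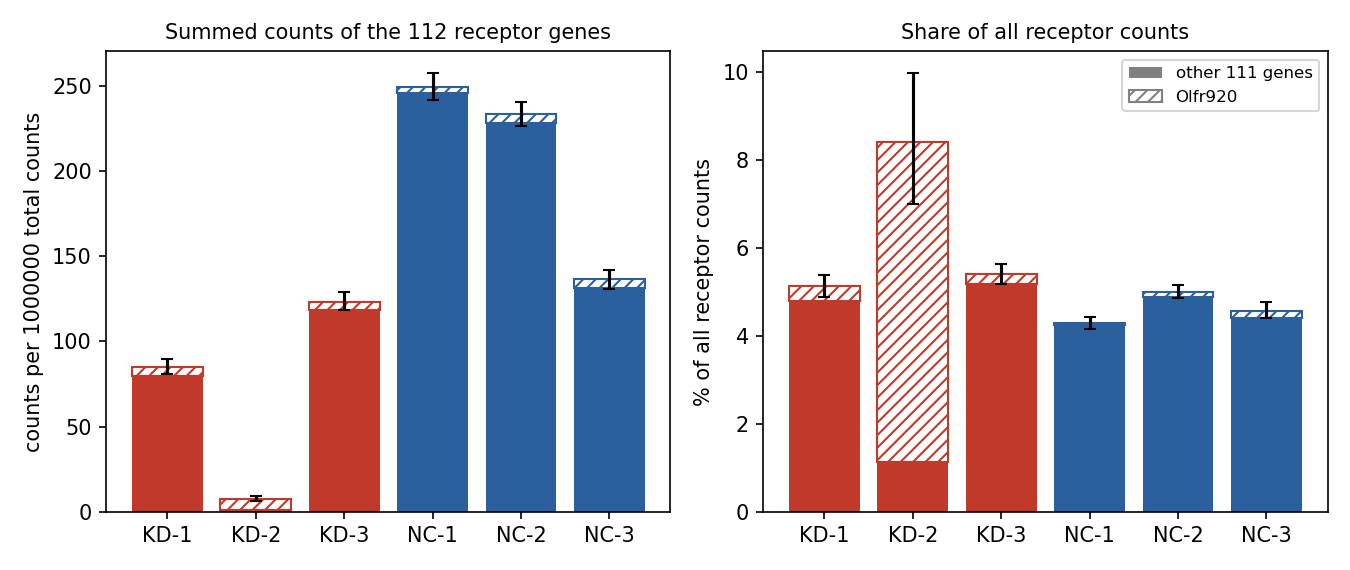
Summed counts of the 112 receptor genes in each library, per 1000000 total counts (left) and as a percentage of all receptor counts (right), with KD in red, NC in blue, Olfr920 hatched and the other 111 genes solid; error bars are exact 95% intervals of the whole bar, for counting error only. The left bars run from 7.58 in KD-2 to 249 in NC-1, and the right bar of KD-2, 8.40%, is mostly Olfr920.

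The receptor total of KD-2 was made up of few genes. Olfr1372-ps1, a receptor pseudogene outside the set, held 773 of its 1417 counts (54.6%), against 1.19% to 3.16% of receptor counts in the other 5 libraries. A count of 0 allows up to 3 counts, which in KD-2 is 0.212% of receptor counts. For 109 of the 112 genes the mean NC share was below that limit, so KD-2 could not show whether their share was lower. A higher share could be seen, as for Olfr920, at 7.27% of receptor counts in KD-2. Only 9 genes had any count there: Olfr920 with 103, Olfr856-ps1 with 4, Olfr876 and Olfr921 with 3 each, Olfr836 with 2, and Olfr969, Olfr978, Olfr985 and Olfr986 with 1 each.

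Fitted changes of the set were below 0 nearly throughout, and none passed the test of single genes. Of the 112 genes, 56 passed the filter on low counts, and for 54 of the 56 the fitted log2 fold change of KD over NC was below 0. The median was -1.56 and the range -4.50 to 0.50. Over all 18444 genes tested the median was 0.01, and over 701 other receptors it was -1.74, with 694 below 0. When KD-2 was left out the median of the set was -1.11 (61 of 68 tested genes below 0). Leaving out NC-1 as well, it was -0.79 (47 of 59). With a covariate for the mature neuron markers, their mean log2 level in each library, it was 0.53, and 19 of 56 genes were below 0. That level does not overlap between KD and NC, so this fit cannot separate it from the group.

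With the quasi-likelihood test of edgeR and adjustment by Benjamini-Hochberg over all genes, 0 of the 56 were called lower, beside 0.0% of all genes, and the smallest adjusted p was 0.276. At an unadjusted p under 0.05, 14 were lower and 0 higher, beside 9.25% and 8.7% of all genes. In CPM the 3 KD values lay below the 3 NC values for 30 of the 56 and above them for 1, beside 18.6% and 15.3% of all genes. Among the other receptors the groups did not overlap for 399 lower and 1 higher of 701, so the set was not set apart from them by this count. DESeq2 called 4 of the set lower (Olfr876, Olfr878, Olfr921 and Olfr982) and 0 higher, beside 1.06% of all genes called lower. Of the 701 other receptors it called 94 lower, so the set was not set apart from them by these calls either.

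Of the 56 tested genes the furthest from NC was Olfr878 (chromosome 9, 37917840 to 37922474, distal cluster). It had 1, 0 and 2 counts in KD and 40, 25 and 16 in NC. The groups were far from overlapping. Its mean level in CPM was 0.0562 ± 0.0552 in KD, while in NC it was 1.55 ± 0.819 (SD, n = 3 each). The log2 fold change was -4.50 (SE 0.787), with adjusted p = 0.276 in edgeR and 0.0072 in DESeq2.

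The other 5 genes with the smallest p among those with groups apart had more counts in KD. Olfr876 (37803031 to 37808144) had 2, 3 and 8 counts against 40, 58 and 15, a log2 fold change of -2.94 (SE 0.693). Olfr982 (40073829 to 40079404) had 6, 0 and 5 against 25, 49 and 23 (log2 fold change -2.98, SE 0.786). Both lie in the distal cluster of chromosome 9, as does Olfr921 (38773068 to 38779021), which had 44, 3 and 19 counts against 190, 161 and 88. Here the highest KD count was the 44 of KD-1, still below NC-3. Mean CPM of Olfr921 was 1.28 ± 1.19 (SD, n = 3) in KD and 8.29 ± 3.39 (SD, n = 3) in NC, with a log2 fold change of -2.67 (SE 0.795). Olfr985, also distal, had 4, 1 and 11 counts against 18, 23 and 21 (log2 fold change -1.84, SE 0.627). Olfr839-ps1, named as a pseudogene but listed as protein coding in the annotation, and the only proximal gene of the 6, had 4, 0 and 12 counts against 46, 51 and 27 (log2 fold change -2.86, SE 0.883). KD-3 was the highest KD library in 4 of these 6 genes and KD-1 in 2, and in Olfr878 and Olfr982 they differed by 1 count. For all 6 the edgeR adjusted p was 0.276.

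**Figure D3:**
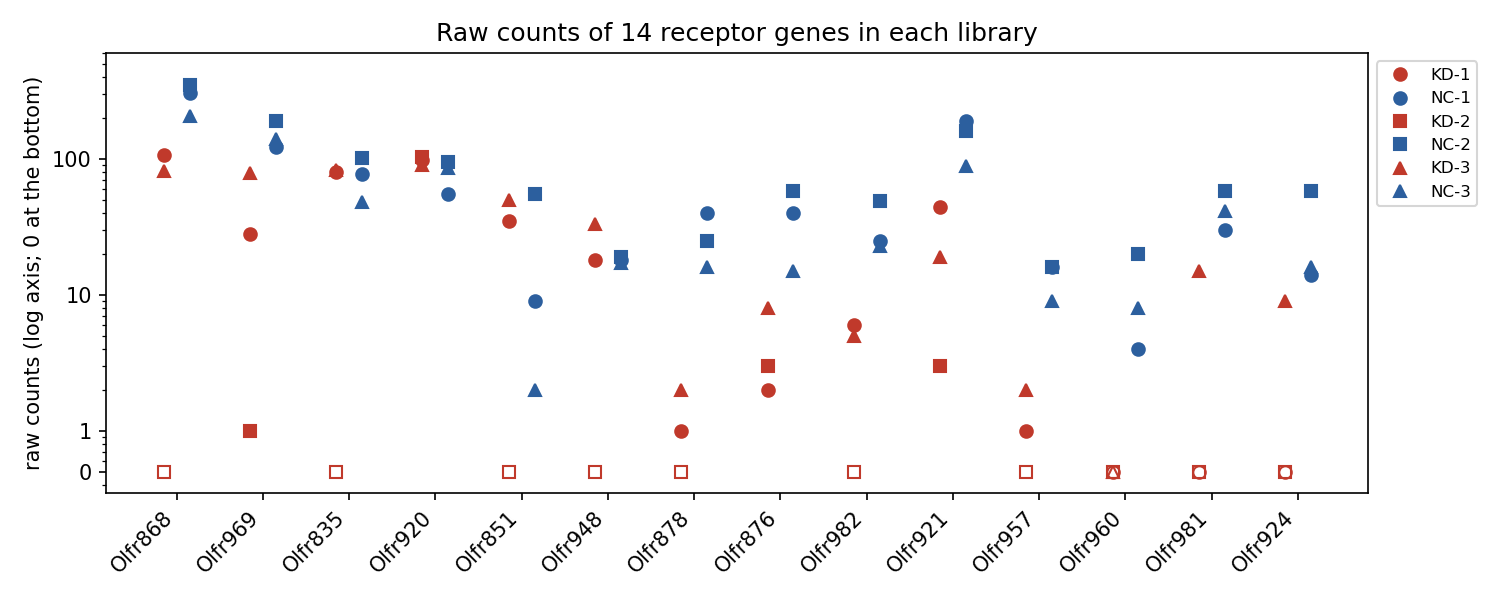
Raw counts of 14 receptor genes in each library on a log axis, coloured red for KD and blue for NC, with the replicate number given by the symbol and open symbols at the bottom for counts of 0. Olfr920 is the gene whose KD-2 count, 103, lies with those of the other libraries, and Olfr878 and Olfr957 have at most 2 counts in any KD library.

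The genes with the highest levels did not pass either. Mean CPM of Olfr868 was 3.59 ± 3.23 (SD, n = 3) in KD and 15.99 ± 3.93 (SD, n = 3) in NC, and its log2 fold change was -2.14 (SE 1.14, edgeR adjusted p = 0.325). For Olfr969 the means were 2.02 ± 2.16 and 8.36 ± 1.17 CPM (log2 fold change -2.03, SE 0.981, edgeR adjusted p = 0.301). For Olfr835 the log2 fold change was -0.44 (SE 1.16) and turned to 0.16 without KD-2. Fold changes of Olfr972 (-0.84, SE 1.17), Olfr872 (-1.11, SE 1.09) and the Olfr912 gene with more counts (-0.75, SE 1.09) were within about 1 standard error of 0.

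Only 2 tested genes had a fitted change above 0, Olfr920 and Olfr851. Next in order came Olfr948 (-0.05, SE 0.990) and Olfr970 (-0.41, SE 1.04). Olfr948 had 18, 0 and 33 counts in KD and 18, 19 and 17 in NC, so KD-1 lay within the range of NC, KD-3 above it and KD-2 at 0. Olfr970 had 22, 0 and 28 against 19, 40 and 11. Without KD-2 their log2 fold changes were 0.53 and 0.17. Olfr851 (chromosome 9, 19493295 to 19502815, proximal) had 35, 0 and 50 counts in KD and 9, 55 and 2 in NC, with a log2 fold change of 0.47 (SE 1.39, edgeR adjusted p = 0.845). Its NC counts alone spanned from 2 to 55, and the groups overlapped.

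Olfr920 (ENSMUSG00000061039, chromosome 9, 38752299 to 38760117, distal) was unlike its neighbours. It had 98, 103 and 90 counts in KD and 55, 95 and 86 in NC. In CPM these were 5.72, 7.89 and 4.96 in KD and 3.39, 4.85 and 4.82 in NC. In CPM, which are scaled by TMM, the groups did not overlap, although KD-3 and NC-2 differed by little. In raw counts they overlapped, with 90 in KD-3 and 95 in NC-2. KD-2 was the highest of the 6 libraries on both scales. The log2 fold change was 0.50 (SE 0.301), which did not pass (edgeR adjusted p = 0.360). Its neighbour on the chromosome, Olfr921, had 3 counts in KD-2. The annotation shows no other gene sharing exon bases with Olfr920. Keeping counts in KD-2 was not particular to Olfr920 among all receptors. Outside the set, Olfr56 had 261, 186 and 127 counts in KD and 78, 115 and 109 in NC. Olfr558 had 36, 25 and 31 against 35, 38 and 31, while Olfr60 was lower in KD-2, with 223, 36 and 216 against 713, 589 and 272.

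The distal cluster of chromosome 9 held more of the low genes than the proximal cluster, and more genes in all. In the distal cluster 33 of 34 tested genes were below 0 (median of -1.74 on the log2 scale), and 21 had KD values all below NC. In the proximal cluster 19 of 20 were below 0, with a median of -1.42, and 9 had KD values all below NC. Among all genes 18.6% had KD values all below NC, and among the other receptors 56.9%. At an unadjusted p under 0.05 there were 12 distal genes and 2 proximal ones, all lower, beside 9.25% of all genes and 28.0% of the other receptors. Without KD-2 the medians were -1.45 over 45 distal genes and -0.95 over 21 proximal ones. The chromosome 10 genes had fold changes of -1.20 for Olfr826 and -0.64 for Olfr827, with standard errors above 1, and these turned to 0.40 and 1.33 when NC-1 and KD-2 were left out together.

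The ratio of distal to proximal counts put this on 1 scale. It was 1.13, 18.8 and 1.35 in KD and 1.55, 1.64 and 1.48 in NC. KD-2 had only 6 proximal counts, and its 113 distal counts were mostly Olfr920. Without Olfr920 the ratio was 0.979, 1.67 and 1.24 in KD and 1.51, 1.57 and 1.39 in NC. KD-1 and KD-3 then lay below the 3 NC libraries and KD-2, on 16 counts in all, above them. As a share of all receptor counts the proximal cluster took 2.26%, 0.423% and 2.13% in KD and 1.57%, 1.87% and 1.81% in NC. The distal cluster took 2.55%, 7.97% and 2.87% against 2.43%, 3.05% and 2.67%. The difference between the clusters was described only, since the set was chosen with earlier results known.

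**Figure D4:**
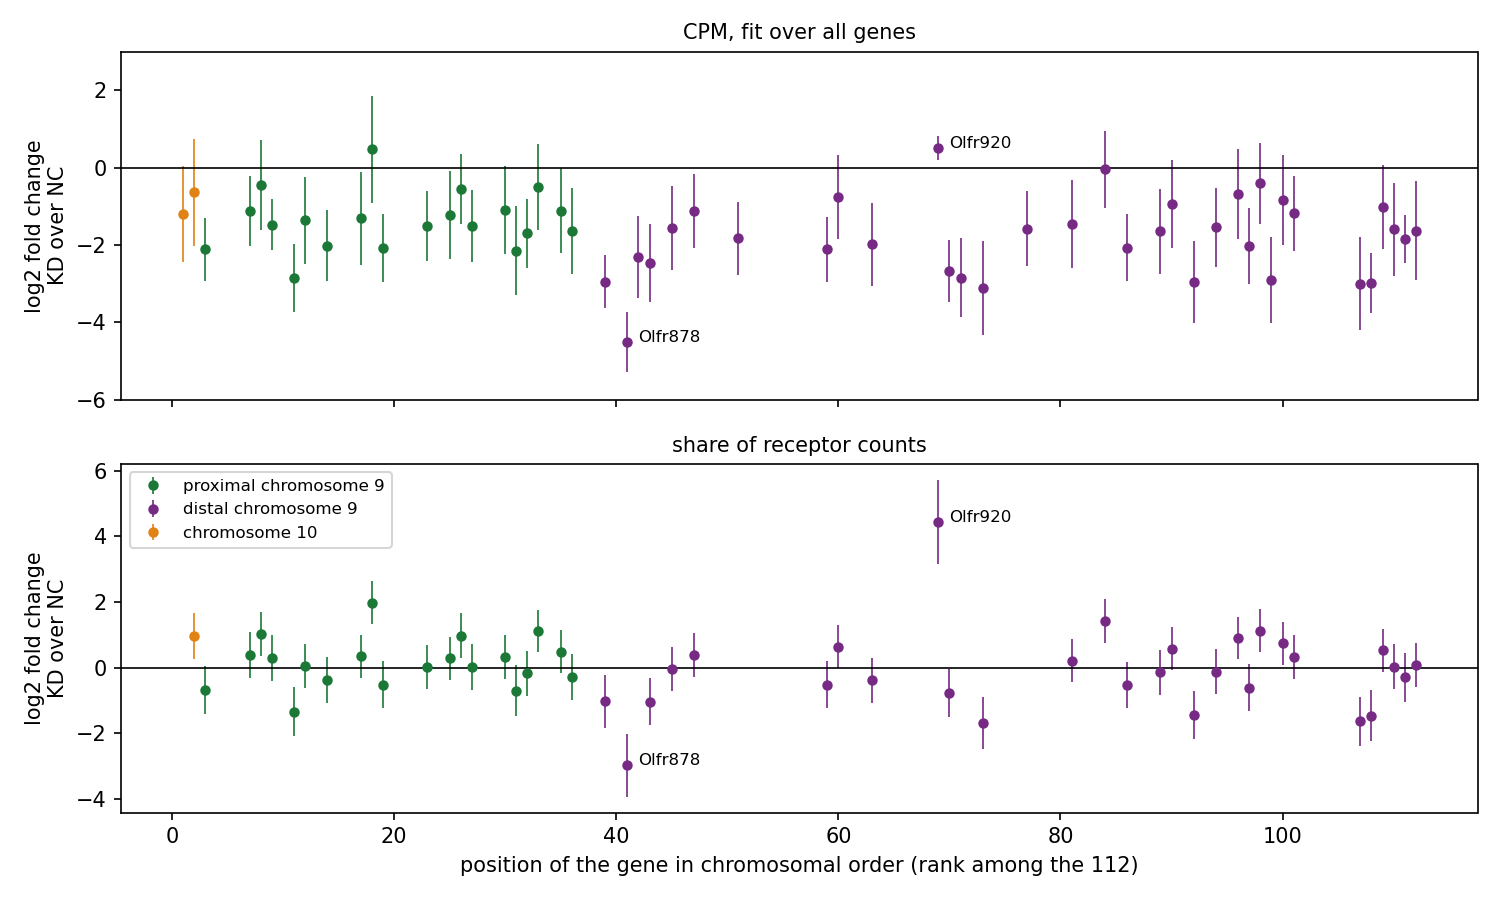
Fitted log2 fold change of KD over NC with its standard error for each tested gene in chromosomal order, from CPM over all genes (top, 56 genes) and from the share of receptor counts (bottom, 50 genes), coloured by cluster. In the top panel 54 points lie below 0, and in the bottom panel the points scatter about 0, with Olfr920 at 4.44 and Olfr878 at -2.97.

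Some distal receptors were close to absent in KD. Of 75 genes with 30 or more counts over the 3 NC libraries, 5 had 3 or fewer over the 3 KD libraries. All 5 lay in the distal cluster, which holds 52 of the 75, and the proximal cluster gave 0 of 21. Among receptors outside the set and outside the class I genes Olfr543 to Olfr692, 34 of 730 met the same condition. Besides Olfr878 these were Olfr957 with 1, 0 and 2 counts in KD against 16, 16 and 9 in NC, and Olfr904 with 0, 0 and 2 against 14, 10 and 8. Olfr960 had 0 counts in each KD library against 4, 20 and 8 in NC, where 0 allows up to 3 counts, or 0.175, 0.23 and 0.165 CPM in KD-1 to KD-3. In these 4 genes every KD count lay below every NC count. Olfr916 met the condition through a single library, with 0, 0 and 2 counts against 0, 36 and 0, and it shares 344 exon bases with the annotated gene Gm49385.

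KD-1 and KD-3 differed in which genes were at 0. There were 11 genes with 0 counts in KD-1 and at least 5 in KD-3, all distal, and 1 gene, Olfr855, with the reverse. The distal cluster holds 76 of the 112 genes. Other receptors were not counted in this way, so the pattern is not read as particular to the set or the cluster. The largest such difference was in Olfr981, with 0, 0 and 15 counts in KD and 30, 58 and 41 in NC. Olfr924 had 0, 0 and 9 against 14, 58 and 16. Olfr961, not 1 of the 11 since KD-1 was above 0, had 2, 0 and 16 counts against 54, 72 and 23. In each of these 3 genes the highest KD count was that of KD-3 and lay below the lowest NC count. KD-3 had more receptor counts than KD-1, 39515 against 29137.

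A second fit asked which receptors took another share of the receptor counts, with the total of the 1179 receptor genes as the library size. In that fit 50 of the 112 genes were tested, 23 were below 0 and 27 above, and the median log2 fold change was 0.02. Over 648 other receptors the median was -0.15. With the quasi-likelihood test of edgeR and adjustment by Benjamini-Hochberg over 698 receptors, 1 gene of the set fell, Olfr878, beside 6.16% of receptors called lower. In the same test 2 rose, Olfr920 and Olfr851, beside 1.15% called higher. The KD shares lay below the NC shares for 5 genes of the set and above for 1, beside 19.1% and 1.58% of receptors. The 5 were Olfr839-ps1, Olfr878, Olfr907, Olfr961 and Olfr982, and the 1 was Olfr920.

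Each of those 3 calls was lost when certain single libraries were left out. Olfr920 made up 0.336%, 7.27% and 0.228% of receptor counts in KD and 0.0586%, 0.116% and 0.169% in NC, so KD-2 stood far above the rest. Its log2 fold change of share was 4.44 (SE 1.27, edgeR adjusted p = 0.011), and without KD-2 it was 1.31 (SE 0.460, adjusted p = 0.128). The call was also lost without any 1 of the NC libraries (adjusted p from 0.220 to 0.375). Olfr851 had a change of 1.98 (SE 0.661, adjusted p = 0.041), with 0 counts in KD-2, and when single libraries were left out the call held only without NC-2. Olfr878 had -2.97 (SE 0.957, adjusted p = 0.029), and its change stayed between -3.34 and -2.73 over all settings tried. Its adjusted p was above 0.05 whenever any 1 library was left out, the highest such value being 0.168.

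Further genes with small p in the fit of shares did not pass. Olfr948 was at 1.41 (SE 0.670, edgeR adjusted p = 0.27) and Olfr870 at 1.12 (SE 0.652, adjusted p = 0.45). On the other side Olfr924 was at -1.69 (SE 0.793, adjusted p = 0.26), Olfr981 at -1.63 (SE 0.750, adjusted p = 0.24) and Olfr961 at -1.43 (SE 0.732, adjusted p = 0.33). These 3 values turned on KD-1 and KD-3. Without KD-3, Olfr981 and Olfr924 were at 0 in both KD libraries left and were called lower (edgeR adjusted p = 0.013 and 0.021), as was Olfr971 (0.044), which was not tested with all 6 libraries, while Olfr961 was at -3.26 (adjusted p = 0.055). Without KD-1, Olfr924 was at -0.89, Olfr981 at -0.83 and Olfr961 at -0.81. The median share change was -0.13 over 29 distal genes and 0.18 over 20 proximal ones. Without KD-2 these were -0.23 over 41 genes and 0.36 over 22, and without KD-3 they were -0.53 over 37 and -0.22 over 20, so the sign of the proximal median turned. When any 1 NC library was left out the distal median lay between -0.35 and -0.05 and the proximal one between 0.17 and 0.24. The 1 tested gene of chromosome 10, Olfr827, was at 0.97 (edgeR adjusted p = 0.604). It was at 1.82 without NC-1 (adjusted p = 0.338), and with KD-2 left out as well it rose, at 2.13 (adjusted p = 0.022).

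The NC libraries themselves differed in which receptors they held. For the 75 genes with 30 or more NC counts, the coefficient of variation of the receptor share over NC-1 to NC-3 had a median of 37.1%, where counting alone gives a median of 18.9%. It lay above the counting value for 63 genes and above 2 times that value for 38. Olfr893 had 4, 67 and 5 counts in NC-1 to NC-3 and Olfr986 had 114, 8 and 33, so that single NC libraries held most of their counts. Olfr827 had 250, 57 and 43 counts in NC and 91, 0 and 143 in KD. At the other end Olfr907 had 36, 32 and 19, with a coefficient of 2.03%, and Olfr887 had 122, 100 and 69, with 5.50%. The genes named in this paragraph were chosen after their values were seen.

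Near-identical receptors differed in counts, which here are not divided by exon length and are uncertain where reads could not be told apart. Of the pair shown above, Olfr870 had 42, 0 and 39 counts in KD and 59, 37 and 20 in NC, while Olfr871 had 1, 0 and 3 against 8, 2 and 0. In every library with counts Olfr870 was the higher. Olfr954 had 10, 0 and 12 counts in KD against 29, 48 and 22 in NC, and Olfr951 had 3, 0 and 0 against 3, 3 and 4. For Olfr954 the groups did not overlap (log2 fold change -2.07, SE 0.864, edgeR adjusted p = 0.279). Olfr870 overlapped (log2 fold change -0.51, SE 1.10), and its direction turned to 0.08 without KD-2. Olfr871 and Olfr951 were too low to test.

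Matches to the microRNA seeds were about as common among the 112 genes as among other receptors. An annotated sequence after the stop codon was found for 102 genes, with a median of 1912 bases, and 32 of them (31.4%) held CAGTGTT or CAGTATT. Of 946 other receptors, 283 (29.9%) did. Of the genes with a match 17 were tested, 16 of which were below 0, and their median log2 fold change was -1.46. Of those without a match 38 were tested, 37 of which were below 0, with a median of -1.63. Olfr920 and Olfr878, at the 2 ends of the range, both held a match. A match is a run of letters and not a measured site.

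Promoter sequence could be read for few of the genes, since only 12 windows of the RefSeq table began within 100 bases of a gene's outermost annotated start. The window of Olfr868, the receptor with the most counts, is shown (build GRCm38.p6, plus strand, chr9:20098376-20098625, the 250 bases before the gene's start), with capitals for TAATTA. This is the core letters bound by homeodomain factors such as Lhx2, which acts in receptor gene choice.
Olfr868: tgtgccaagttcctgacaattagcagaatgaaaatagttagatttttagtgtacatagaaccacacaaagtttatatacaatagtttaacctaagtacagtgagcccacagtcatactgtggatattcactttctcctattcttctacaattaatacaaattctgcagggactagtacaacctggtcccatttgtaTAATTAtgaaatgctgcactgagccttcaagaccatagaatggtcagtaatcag
TAATTA, read on both strands, was in 4 of the 12 windows (33.3%), in 20.0% of 75 windows at the starts of other receptors and in 4.84% of all 32851 windows. CCCNNGGG, the letters bound by Ebf factors, was in 1 of the 12 windows (8.33%), in 18.7% of those of other receptors and in 11.8% of all windows. With 12 windows these shares are imprecise, and no match says only that the letters are not in the window.

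Of the genes that act in the choice, transport and signalling of receptors, 0 passed the edgeR test in each list. Of 14 genes of receptor gene choice 12 had fitted changes below 0, beside 49.4% of all genes tested, and the median was -0.49 on the log2 scale. In 6 of the 14 every KD level lay below every NC level, and changes such as that of the histone demethylase gene Kdm1a (-0.01, SE 0.118) were near 0. Lhx2, a homeodomain factor of olfactory neurons, had 1128, 14 and 1928 counts in KD and 3701, 3441 and 3235 in NC (log2 fold change -1.76, SE 1.21). Atf5, a factor that holds the choice of a receptor stable, was the gene of the list with an unadjusted p under 0.05 on the low side (log2 fold change -1.53, SE 0.624, edgeR adjusted p = 0.277). On the high side this was Lbr, the lamin B receptor that olfactory neurons turn off as their receptor loci gather in the nucleus, at 0.62 (SE 0.231, edgeR adjusted p = 0.276). Of 5 transport genes 4 were below 0, with a median of -1.73. Rtp1, which carries receptors to the cell surface, had 2710, 14 and 3682 counts against 8529, 7512 and 6184 (log2 fold change -1.79, SE 1.35). Of 14 signalling genes 13 were below 0, with a median of -1.71. All 12 markers of mature olfactory neurons were below 0 (median -1.78), beside -1.56 for the 112 receptors' tested genes. Their summed level was 94.8 to 4533 CPM in KD and 7702 to 12252 in NC, and the marker lowest in KD-2, Gng13, had 3 counts there. Most mature neuron markers are also in the signalling list, and Rtp1 is also in the transport list, so these lists are not independent.

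The authors' deposited table gave a fold change for each gene of the set, with the same direction in most. Of the 112 values in the authors' deposited table, 105 were below 0, and 34 had an unadjusted p-value under 0.05, all of them lower. The authors' values for other genes were not counted, so these numbers are not read as particular to the set. In the DESeq2 fit made here, 694 of 701 tested other receptors were below 0. In that fit an unadjusted p under 0.05 on the low side was found for 261 of these 701 and for 2127 of all 18444 genes. For Olfr878 the authors' deposited table gave a log2 fold change of -4.70 and for Olfr920 one of 0.47.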

How the data were processed

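Poly(A) RNA-seq libraries of MOE, 3 KD and 3 NC by their titles, were prepared with an NEBNext Ultra kit, per the labels' protocols. The submitters' processing notes list the build GRCm38, the aligners HISAT2 2.1.0, TopHat2 and Bowtie2 2.2.3, the counter HTSeq 0.6.0 and the packages DESeq and DESeq2, but not how each was used. The deposited table holds raw counts per gene and library. Per the file headers it also holds the authors' log2 fold change and p-value per gene, which were used only where named, and a mean signal over the libraries, which the authors deposited and which was not used for results. Whether counting used strand is not stated.

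Counts were tested with edgeR 4.0.16 (R 4.3.3), normalised by TMM and filtered by filterByExpr, in a two-sided quasi-likelihood test. P-values were adjusted by Benjamini-Hochberg over 18444 genes, with a threshold of 0.05. A second fit used 1179 receptor genes with their summed counts as library size and no scaling factor (698 tested). Biological coefficients of variation were 40.9% and 45.9%. CPM are scaled by TMM, and shares of counts are not. DESeq2 1.42.0 was an alternative, with the filter, the scaling, a replicate block, a mature neuron covariate and libraries left out. The scripts were checked on simulated libraries in which some genes had been changed. Identity came from pairwise alignment of GENCODE coding sequences (Biopython 1.88), where proteins had been planned.

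The receptor genes and the lists were chosen with earlier results of these data known. Genes were named by rule: the 6 highest in CPM per kb, the 6 with the smallest p and groups apart, the 4 largest fold changes, up to 4 in each direction in the fit of shares, the 2 most alike pairs, and those with 3 or fewer KD counts and 30 or more NC counts. Olfr971, Kdm1a, Cyp2g1, Sox2 and Cbr2 and the genes named from the NC spread, from the counts of KD-2 and from the differences between KD-1 and KD-3 lie partly outside it and were chosen after their values were seen.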

Additional observations from a re-analysis of the deposited data

How the results depend on the processing

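Counts limit single receptors most: 56 of the 112 genes were too low to test, and a 0 in KD-2 allows 0.212% of receptor counts. The covariate, the mature neuron level, does not overlap between the groups, so the fit with it cannot tell them apart. With total counts as the only scaling the median of all genes moved by -0.14 and that of the set was -1.62.

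With DESeq2, 196 genes were lower and 151 higher over all genes, of which 4 and 0 were in the set, and among the receptor shares 5 rose, 1 of them in the set, where 0 of the set fell. With no filter on low counts 105 of 112 were below 0, and in the fit of shares 93 receptors fell and 18 rose (2 and 4 of the set), with 68 of 112 below 0 and a median of -0.26. With the mature neuron covariate the median was 0.53 with 19 of 56 below 0. Of the tested genes named by rule, 8 turned above 0. They were Olfr868 (0.13), Olfr972 (1.99), Olfr912 (ENSMUSG00000060114, 1.26), Olfr835 (1.89), Olfr872 (1.53), Olfr948 (1.90), Olfr970 (1.63) and Olfr870 (2.15). With the replicate number as a block 0 genes were called and the median was -2.02, while of the shares 13 receptors fell and 0 rose, none in the set. Same-numbered libraries deviated together with correlations of 0.31, 0.10 and -0.26, so numbers were not taken to pair them. KD-2 correlated best with NC-3 (0.35) and KD-3 with NC-1 (0.27). TMM over receptors left 1 call on the high side in the set, Olfr920. A fit with Olfr920 removed from the genes and the receptor totals was chosen after seeing the data. Olfr920 was therefore not tested in it, and the call on the high side in the set was Olfr851. The cause of these shifts was not tested.

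Leaving libraries out gave 0 to 3 genes called higher over all genes, and medians of the set from -2.44 to -0.79. Changes of single genes ran from -1.52 to 0.0046 for Olfr972, -0.84 to 0.25 for Olfr835, -0.15 to 2.27 for Olfr851, -0.87 to 0.60 for Olfr948, -0.93 to 0.17 for Olfr970 and -0.98 to 0.63 for Olfr870. In the fit of shares 18 to 60 receptors fell and 1 to 8 rose, of the set 0 to 3 and 0 to 1, with 23 to 38 below 0 and medians from -0.38 to 0.087. Without Olfr920 the mean share was 3.70% in KD, where KD-2 had 1.13%, and 4.51% in NC. Without Olfr868 it was 6.12% in KD and 4.24% in NC. Against receptors outside the set and outside Olfr543 to Olfr692 it was 6.90% in KD and 5.02% in NC.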
